A study of Mus musculus with 12 samples.

Results

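The genes described here encode the proteins of the nuclear pore that carry a Nup symbol and the karyopherins, the receptors that carry cargo through the pore. Members were taken by symbol alone: every Nup followed by a number, and the Ipo, Xpo, Kpna, Kpnb and Tnpo genes, without readthrough names. This gave 43 genes of the 24046 symbols in the count table, and 42 of them passed the filter on low counts that left 12242 genes to test. The 43rd, the importin alpha gene Kpna7, had 1 count in all libraries together, in KO 0 h replicate 2, and was not tested. Messenger RNA was sequenced from follicular (FO) B cells sorted from mouse spleen, the main recirculating B cells of that organ. The animals were either wild type (WT) or labelled Jmjd1c KO, a knockout of the JmjC-domain protein JMJD1C. All were sampled at 0 h and at 2 h of anti-IgM, which binds and clusters the antigen receptor of B cells. Each of the 4 groups (WT 0 h, WT 2 h, KO 0 h and KO 2 h) had 3 libraries, from 6 animals, by the IDs in the library names, that each gave both times. Each library carries a batch number from 1 to 3 that is shared across genotypes and times. Replicate numbers below are these batch numbers, and values of a group are always given in the order of batches 1 to 3. The labels give neither the part of Jmjd1c that was deleted nor the cells in which it was deleted, nor the age of the animals. The comparison has no 2 h libraries without anti-IgM, so 2 h in culture and the antibody cannot be told apart.

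The nuclear pore is a channel through the nuclear envelope built from many copies of a set of proteins, the nucleoporins. Outer and inner rings form the scaffold, nucleoporins with phenylalanine-glycine (FG) repeats fill the channel, and filaments and a basket extend into the cytoplasm and the nucleus. Importins bind cargo in the cytoplasm and release it in the nucleus on meeting the GTPase Ran in its GTP form, while exportins bind cargo together with Ran-GTP and release it outside. A B cell that leaves rest through its receptor enlarges, makes ribosomes and moves transcription factors into the nucleus, all of which pass through this machinery.

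Total counts ranged from 5666013 to 14153396 per library. Levels are given as CPM, counts brought to the same library total with TMM factors of 0.522 to 1.20, and a floor of 3 counts corresponds to 0.183 to 1.02 CPM, covering counting error only. KO 2 h replicate 1 stood apart: 52.3% of its counts lay on the 45S ribosomal RNA row Rn45s against 0.418% to 24.8% elsewhere. Its Mki67 level was 530 CPM against 8.81 to 138 elsewhere, and it had the lowest summed level of the 43 genes. Of 12 follicular B cell markers 10 were in the table, none at 0 in any group, with summed levels of 3728 to 7035 CPM. Sums over 14 myeloid markers (9 tested) reached at most 155 CPM in WT 2 h and 566 CPM in KO 2 h. Sums over 20 proliferation markers reached at most 1049 and 2071 CPM. The part of these differences in the results was not tested, and results that rest on KO 2 h replicate 1 are given with and without it. Jmjd1c itself was at 325 ± 35.7 CPM (SD, n = 3) in WT and 221 ± 21.4 CPM in KO at 0 h and at 296 ± 26.3 and 207 ± 7.30 CPM at 2 h, with every KO library below every WT library at the same time.

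Summed over the 43 genes, the level was 4593, 4614 and 4281 CPM in WT at 0 h and 4746, 6181 and 5552 CPM at 2 h. In KO it was 4569, 4734 and 4093 CPM at 0 h and 3855, 6236 and 5237 CPM at 2 h. The 3 WT sums at 2 h all exceeded those at 0 h, whereas in KO replicate 1 was lower at 2 h than any library at 0 h and the other replicates were higher. As these are bulk samples, fewer cells of a kind and less RNA per cell cannot be told apart in any value below.

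At 2 h the change was carried by a subset of the machinery: the outer ring proteins Nup43, Nup85, Nup107 and Nup133, the channel protein Nup62, importins of ribosomal and histone cargo (Ipo4, Ipo5, Ipo7), the importin alpha gene Kpna2 and the tRNA exportin Xpot were higher in both genotypes. In WT 14 of the 42 tested members rose and 0 fell by edgeR's quasi-likelihood test at a Benjamini-Hochberg adjusted p under 0.05, against 10.7% of all tested genes called higher and 9.06% called lower. In KO 14 rose and 2 fell, against 14.1% and 13.0% of all tested genes. The median log2 change of the members was 0.35 in WT and 0.26 in KO, beside 0.01 and 0.04 for all tested genes, and 34 and 28 of the 42 values were positive. Both genotypes shared 13 of the called rises, and 25 members were called in neither. Nup155 was called higher in WT alone, Nup37 in KO alone, and the members called lower in KO, Xpo1 and Ipo13, were not called in WT. None of these 4 differed between the genotypes by the test of the difference in response, whose adjusted p was 0.9999 for each.

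**Figure D1:**
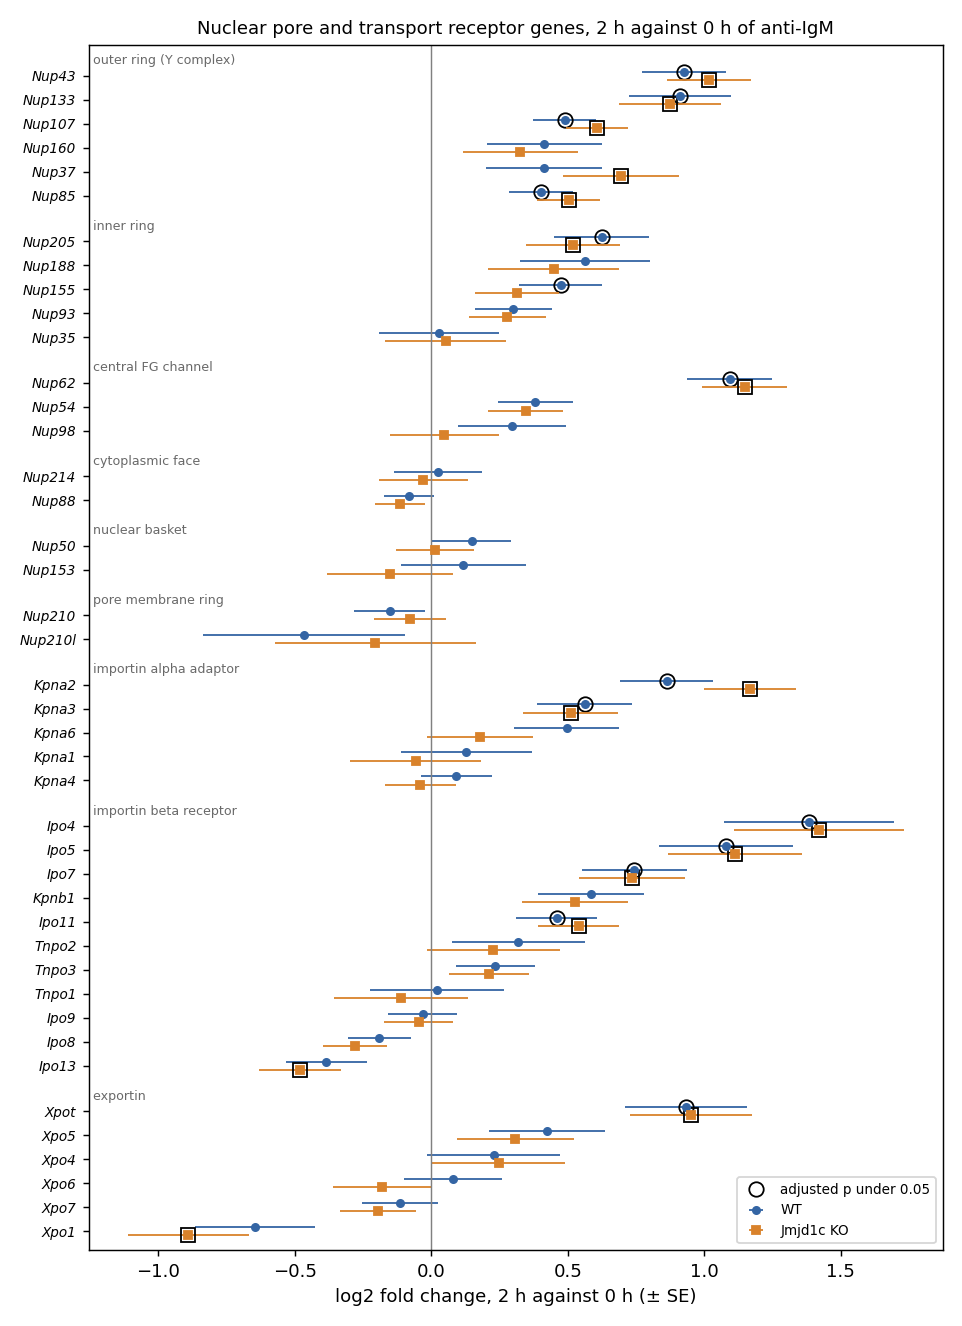
Fitted log2 change from 0 h to 2 h (x axis, ± SE) of each of the 42 tested members, grouped by its place in the transport machinery (y axis), in WT (circles) and Jmjd1c KO (squares), with an outline where the adjusted p was under 0.05. The outer ring lies to the right of 0 throughout, the basket, cytoplasmic face and membrane ring lie near or left of 0, and the receptors run from Ipo4 at 1.38 and 1.42 to Xpo1 at -0.65 and -0.89.

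The groups of 3 libraries did not overlap for 20 members that lay above and 4 that lay below their 0 h values in WT, against 21.3% and 22.7% of all tested genes. In KO the same held for 14 members above and 3 below, against 17.9% and 19.6%. Within animals, 25 members were higher at 2 h in all 3 WT animals and 5 were lower in all 3, where 29.1% and 31.6% of all tested genes were. The KO animals gave 15 and 3 members, against 25.9% and 28.3%. The members that lay below without overlap in both genotypes were Xpo1, Ipo13 and Ipo8, and the fourth in WT was Nup210.

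The rise differed between animals. The median within-animal log2 difference over the 42 members was 0.10, 0.41 and 0.44 for WT batches 1, 2 and 3, and -0.05, 0.44 and 0.45 for KO. Batch 1 was lowest in both genotypes, and its 2 h libraries were those with the largest Rn45s shares, 24.8% in WT and 52.3% in KO. Among members, the KO batch 1 difference fell further below that of the other KO animals in genes with longer coding sequences (Spearman's rho -0.29 over 42 genes, which share the library and are not independent). Over the 11023 tested genes with a coding length rho was -0.16 in KO. For WT batch 1 rho was -0.085 over the 42 members and -0.0039 over the 11023 genes. Without KO 2 h replicate 1 the KO count became 21 rises and 1 fall (17.1% and 13.7% of all tested genes), the added genes being Xpo5, Kpna6, Kpnb1, Tnpo2, Nup155, Nup188 and Nup160, and the median rose to 0.43. With both 2 h libraries of batch 1 left out, KO had 20 rises and 2 falls (16.3% and 15% of all tested genes) and WT had 21 and 2 (15% and 13.9%). The WT count was 8, 6, 5 and 6 without WT 0 h replicate 1, WT 0 h replicate 3, WT 2 h replicate 2 and WT 2 h replicate 3 in turn, when 6.85%, 6.47%, 5.78% and 6.69% of all tested genes were called higher. Nup62, Nup43, Nup133, Kpna2 and Ipo4 were called higher in both genotypes under each of 22 other settings, and Nup107, Nup85, Ipo5 and Xpot were so in KO.

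**Figure D2:**
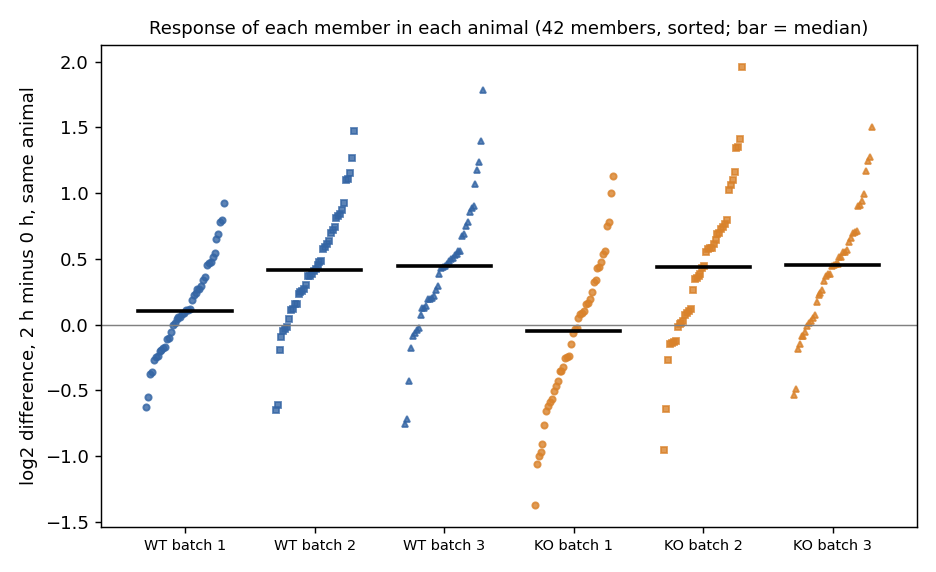
Within-animal log2 difference between 2 h and 0 h (y axis) for the 42 tested members, sorted within each of the 6 animals (x axis: genotype and batch), with a bar at the median. The medians of batches 2 and 3 lie between 0.41 and 0.45 in both genotypes, while those of batch 1 are 0.10 in WT and -0.05 in KO.

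Promoter windows, from 250 bases before to 50 after an annotated start, were found in RefSeq (GRCm38.p6) for 34 of the 43 genes, as 41 windows, and were searched on both strands for 6 short motifs. The E-box CACGTG, a site bound by Myc and related factors, was in 17.1% of the members' windows and 7.15% of all 32851 windows. The NRF1 site GCGCATG was in 17.1% and 3.91%, the CCAAT box CCAAT in 53.7% and 37.4%, the GC box GGGCGG in 63.4% and 35.7%, the ETS site CCGGAAG in 17.1% and 8.86%, and the CRE TGACGTCA in 4.88% and 1.79%. Among the 13 genes called higher in both genotypes, 10 had a window: Ipo4, Ipo7 and Xpot held the E-box, and Nup62, Nup133, Nup107 and Xpot the NRF1 site. Members called in neither direction held them too, Nup54, Nup93, Nup188 and Tnpo2 the E-box and Nup50, Nup188 and Xpo5 the NRF1 site. In Ipo4 the E-box began 14 bases after the start. A match describes letters in a window and is not evidence that a factor binds there. The 250 bases before the start are shown, 5′ to 3′ on the gene's strand, for 3 genes that rose in both genotypes: Ipo7 at chr7:110018065-110018314 (plus strand), with the E-box in capitals 137 bases before the start; Nup62 at chr7:44815838-44816087 (plus strand), with GCGCATG and, overlapping it, its reverse complement CATGCGC from 20 bases before the start; and Nup133 at chr8:123949266-123949515 (minus strand), with CATGCGC 55 bases before it.
Ipo7: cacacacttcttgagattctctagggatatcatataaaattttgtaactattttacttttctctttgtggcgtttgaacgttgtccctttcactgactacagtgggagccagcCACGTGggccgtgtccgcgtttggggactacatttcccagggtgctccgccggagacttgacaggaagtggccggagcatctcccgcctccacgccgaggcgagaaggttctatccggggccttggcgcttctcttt
Nup62: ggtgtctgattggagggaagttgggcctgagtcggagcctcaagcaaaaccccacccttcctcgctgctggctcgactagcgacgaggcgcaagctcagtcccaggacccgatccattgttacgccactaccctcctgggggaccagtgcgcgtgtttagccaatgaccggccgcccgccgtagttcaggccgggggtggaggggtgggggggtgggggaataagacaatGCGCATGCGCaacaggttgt
Nup133: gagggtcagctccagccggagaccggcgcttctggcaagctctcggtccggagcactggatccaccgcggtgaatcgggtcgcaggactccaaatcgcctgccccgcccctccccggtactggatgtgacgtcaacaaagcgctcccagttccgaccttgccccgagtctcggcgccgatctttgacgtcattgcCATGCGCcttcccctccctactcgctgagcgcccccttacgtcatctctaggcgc

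The outer ring of the pore is built from Y-shaped complexes. Of its 6 members with a Nup symbol 4 rose in WT and 5 in KO, beside 10.7% and 14.1% of all tested genes. All 6 log2 changes were positive in each genotype, and their median was 0.45 in WT and 0.65 in KO. Summed over the 6, the ring took 5.06% to 5.40% of the members' CPM in WT at 0 h and 6.15% to 6.38% at 2 h, and 4.99% to 5.40% and 6.57% to 7.19% in KO, with no overlap between times. Nup43 (chr10:7667504-7678886), a small propeller-shaped subunit, stood in WT at 10.1, 11.3 and 9.95 CPM at 0 h and at 16.1, 22 and 21.4 CPM at 2 h. In KO, Nup43 was at 12.5, 11.9 and 11 CPM at 0 h and at 21.3, 24.6 and 25.3 CPM at 2 h. Every 2 h library exceeded every 0 h library, and the log2 change was 0.93 ± 0.15 in WT (SE, adjusted p = 0.00195 by edgeR) and 1.02 ± 0.15 in KO (adjusted p = 0.000837). Nup133 (chr8:123897114-123949265), at the stem of the Y, stood in WT at 49.7, 50.4 and 49.1 CPM at 0 h and at 80.3, 109 and 91.3 CPM at 2 h. In KO, Nup133 was at 47.4, 53.1 and 42.7 CPM at 0 h and at 64, 114 and 82.3 CPM at 2 h. The times did not overlap, although KO 2 h replicate 1 was much the lowest of the 2 h libraries. Its log2 change was 0.91 ± 0.19 in WT and 0.87 ± 0.19 in KO (adjusted p = 0.00574 and 0.00564 by edgeR).

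Nup107 (chr10:117750621-117792736), the partner of Nup133 in the stem, stood in WT at 42.1, 52 and 46.7 CPM at 0 h and at 58.3, 69.8 and 69.3 CPM at 2 h. In KO, Nup107 was at 44.7, 49.9 and 45.4 CPM at 0 h and at 66, 74.8 and 71.9 CPM at 2 h. Its replicates were tight, KO 2 h replicate 1 included, and the times did not overlap. The log2 change was 0.49 ± 0.11 in WT and 0.61 ± 0.11 in KO (adjusted p = 0.0112 and 0.00274 by edgeR). Nup85 (chr11:115564432-115583924), in one arm of the Y and the highest of the ring per coding length, stood in WT at 45.4, 50.8 and 42.1 CPM at 0 h and at 53.7, 67.5 and 61.5 CPM at 2 h. In KO, Nup85 was at 48.3, 46.1 and 42.6 CPM at 0 h and at 61.3, 69.4 and 63.3 CPM at 2 h. The smallest step was in WT batch 1, but again no 2 h library reached down to a 0 h library. The log2 change was 0.40 ± 0.12 and 0.50 ± 0.12 (adjusted p = 0.0302 and 0.00816 by edgeR). Nup37, a further propeller subunit and one of the lowest members, was at 5.16, 5.31 and 7.81 CPM in WT at 0 h, 7.59, 7.61 and 9.19 at 2 h, 5.91, 6.23 and 6.60 in KO at 0 h and 10.5, 10.03 and 9.91 at 2 h. The WT groups overlapped through WT 0 h replicate 3 and the KO groups did not, and the log2 change was 0.41 ± 0.21 in WT (adjusted p = 0.208 by edgeR) and 0.70 ± 0.21 in KO (adjusted p = 0.0310). The KO call of Nup37 was made under 14 of the 22 other settings and was lost without the 2 h libraries of batch 1. Nup160, the longest of the 6 members by coding length, had log2 changes of 0.41 and 0.33 and was called in neither genotype. Without KO 2 h replicate 1, however, Nup160 was called in both. Of the ring subunits under other names, Sec13 had log2 changes of 0.09 and 0.28, Seh1l of 0.41 and 0.25, and Ahctf1 of 0.64 and 0.47. None of them was called.

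The inner ring, which holds the scaffold together and anchors the channel proteins, had 5 members, with 2 called higher in WT and 1 in KO. Of all tested genes 10.7% and 14.1% were called higher, so the KO count is near that share. The median log2 change of the ring was 0.47 in WT and 0.31 in KO. Nup205, one of its large arch-shaped proteins, rose in both, by 0.62 ± 0.17 in WT and 0.52 ± 0.17 in KO on the log2 scale (adjusted p = 0.0258 and 0.0447 by edgeR). It was called in WT under 17 and in KO under 8 of the 22 other settings, and in neither genotype with the animal as a block. Nup155, a linker of the ring, was at 77.7, 81.1 and 76.9 CPM in WT at 0 h and 108.00, 113 and 106 at 2 h, and at 74.5, 86 and 71 and 71.1, 117 and 97.6 in KO. Its WT groups were far apart and its KO groups overlapped through replicate 1, with log2 changes of 0.47 ± 0.15 (adjusted p = 0.0482 by edgeR) and 0.31 ± 0.15 (adjusted p = 0.150). The WT call was made under 10 of the 22 other settings and the KO values were called under 3, among them the fit without KO 2 h replicate 1. Nup93 (chr8:94214564-94328100), a hub that binds the channel proteins and the highest of the ring per coding length, stood in WT at 60.7, 60.3 and 51.7 CPM at 0 h and at 62.6, 82.7 and 67.6 CPM at 2 h. In KO, Nup93 was at 58.3, 51.4 and 52.9 CPM at 0 h and at 57.2, 77.3 and 62 CPM at 2 h. Its increases were small against the spread, 0.30 ± 0.14 and 0.28 ± 0.14 on the log2 scale, and neither was called (adjusted p = 0.165 and 0.166 by edgeR). Nup188, a relative of Nup205, had values of 0.56 and 0.45, and Nup35, which contacts the membrane, of 0.03 and 0.05, and neither was called.

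Of the central channel, the FG protein Nup62 (chr7:44816088-44831836), which forms the diffusion barrier with Nup54 and Nup58, showed the smallest p of all members. It stood in WT at 58.8, 67.3 and 51.9 CPM at 0 h and at 112.00, 145 and 122.95 CPM at 2 h. In KO, Nup62 was at 57, 64.2 and 61.5 CPM at 0 h and at 126, 164 and 115 CPM at 2 h. The within-animal log2 differences lay between 0.90 and 1.35 in the 6 animals, the times did not overlap, and the log2 change was 1.09 ± 0.16 in WT (adjusted p = 0.000823 by edgeR) and 1.15 ± 0.16 in KO (adjusted p = 0.000444). Nup62 shares 97 exon bases (3.40% of its exon length) with its neighbour Il4i1 and 82 bases with Atf5 on the opposite strand, and the strand setting of the counting is not given. The table also has a readthrough row joining Nup62 and Il4i1. That row exceeded the Il4i1 row by 10 to 45 counts in each library, while the Nup62 row held 371 to 1860 counts, so almost all counts of the readthrough row equalled those of Il4i1. Nup54, its partner, was at 38.5, 35.5 and 33.8 CPM in WT at 0 h and 38.4, 53.1 and 48.9 at 2 h, and at 41.7, 45.7 and 37.1 and 47.7, 58.5 and 51.4 in KO. The WT groups overlapped by replicate 1 and the KO groups did not, and the log2 changes of 0.38 and 0.35 were not called (adjusted p = 0.0745 and 0.0839 by edgeR). Nup98, whose transcript also encodes the outer ring protein Nup96, had log2 changes of 0.29 and 0.05 and was not called.

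On the sides of the pore no member was called: 0 of 2 members of the cytoplasmic face, 0 of 2 of the nuclear basket and 0 of 2 of the membrane ring were called in either genotype by edgeR, nor did any of them reach an unadjusted p under 0.05. Of all tested genes 10.7% were called higher and 9.06% lower in WT, and 14.1% and 13.0% in KO. At these shares 0 of 2 does not set a group apart from other genes. These counts hold for the Nup genes with a number alone. Nupl2, a protein of the cytoplasmic face under another name, was called higher in KO and not in WT. Nup88 (chr11:70943058-70969973), which holds Nup214 at the cytoplasmic exit, stood in WT at 93.1, 85.5 and 88.1 CPM at 0 h and at 86.8, 82.5 and 82.8 CPM at 2 h. In KO, Nup88 was at 94.2, 95.4 and 89 CPM at 0 h and at 79.5, 87.5 and 89.6 CPM at 2 h. The values barely moved, and with an SE of 0.09 in each genotype this was the most precisely measured member (log2 change -0.08 in WT and -0.11 in KO). Nup214, an FG protein of the export side, had log2 changes of 0.02 and -0.03. Nup153 (chr13:46679902-46727849), a basket protein that binds importins, stood in WT at 381, 352 and 297 CPM at 0 h and at 334, 420.5 and 363.99 CPM at 2 h. In KO, Nup153 was at 403.00, 388 and 298 CPM at 0 h and at 206, 420.1 and 353 CPM at 2 h. KO 2 h replicate 1 was the lowest library of the series and the other groups overlapped, which gave 0.12 ± 0.23 in WT and -0.15 ± 0.23 in KO. Nup50, which helps release cargo from importin alpha in the basket, had values of 0.15 and 0.01. Nup210 (chr6:91013067-91118322), the transmembrane protein gp210, stood in WT at 268, 302 and 275 CPM at 0 h and at 233, 263 and 262 CPM at 2 h. In KO, Nup210 was at 239, 268 and 226 CPM at 0 h and at 268, 223 and 204 CPM at 2 h. Its WT values at 2 h all lay below those at 0 h and its KO values overlapped, with log2 changes of -0.15 ± 0.13 and -0.08 ± 0.13 (adjusted p = 0.487 and 0.684 by edgeR). Its relative Nup210l was the lowest tested member, with 10 to 99 counts per library.

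Importin alpha proteins are adaptors that bind the classical nuclear localization signal and ride on importin beta. Of the 5 tested genes, 2 rose in each genotype, Kpna2 and Kpna3, beside 10.7% of all tested genes in WT and 14.1% in KO. Kpna2 (chr11:106988629-106999525) stood in WT at 17.2, 23.8 and 18 CPM at 0 h and at 30.4, 42.6 and 34.2 CPM at 2 h. In KO, Kpna2 was at 19.3, 22.5 and 18.5 CPM at 0 h and at 39.3, 51.1 and 44.5 CPM at 2 h. All 6 animals had a higher value at 2 h and the times were well apart, with log2 changes of 0.86 ± 0.17 in WT (adjusted p = 0.00466 by edgeR) and 1.17 ± 0.17 in KO (adjusted p = 0.000663). Kpna3, which belongs to another subfamily together with Kpna4, was at 82.1, 72.2 and 73.8 CPM in WT at 0 h and 89, 129.8 and 118.01 at 2 h, and at 89.8, 76.4 and 70.2 and 88, 133.04 and 115 in KO. The KO groups overlapped through replicate 1, which did not rise, and the log2 change was 0.56 ± 0.17 and 0.51 ± 0.17 (adjusted p = 0.0411 and 0.0480 by edgeR). Kpna3 was called in WT under 12 and in KO under 7 of the 22 other settings. With the batch number as a replicate block it was not called in KO, and with the animal as a block in neither genotype.

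Kpna4 (chr3:69072221-69127092), the highest adaptor per coding length, stood in WT at 163, 141 and 162 CPM at 0 h and at 165, 173.99 and 159 CPM at 2 h. In KO, Kpna4 was at 179.00, 169 and 153.00 CPM at 0 h and at 133.03, 180.4 and 173 CPM at 2 h. These values overlapped between times in both genotypes, and the log2 change was 0.09 ± 0.13 in WT and -0.04 ± 0.13 in KO, not called. Kpna1 likewise gave 0.13 and -0.06. The mix of adaptors shifted on the scale of CPM per kilobase of coding sequence. The share of Kpna2 in the importin alpha total went from 4.26% ± 0.859 to 6.22% ± 0.436 in WT and from 4.21% ± 0.505 to 8.54% ± 1.15 in KO (SD, n = 3), that of Kpna3 from 16.7% to 19.9% and from 16.7% to 21.3%, and that of Kpna4 from 34.1% to 29.7% and from 35.4% to 31.0%. The Kpna2 shares did not overlap between the times in either genotype. How reads shared between related genes were counted was not given in the sources used here, and the values of close relatives such as these are uncertain to that extent.

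**Figure D3:**
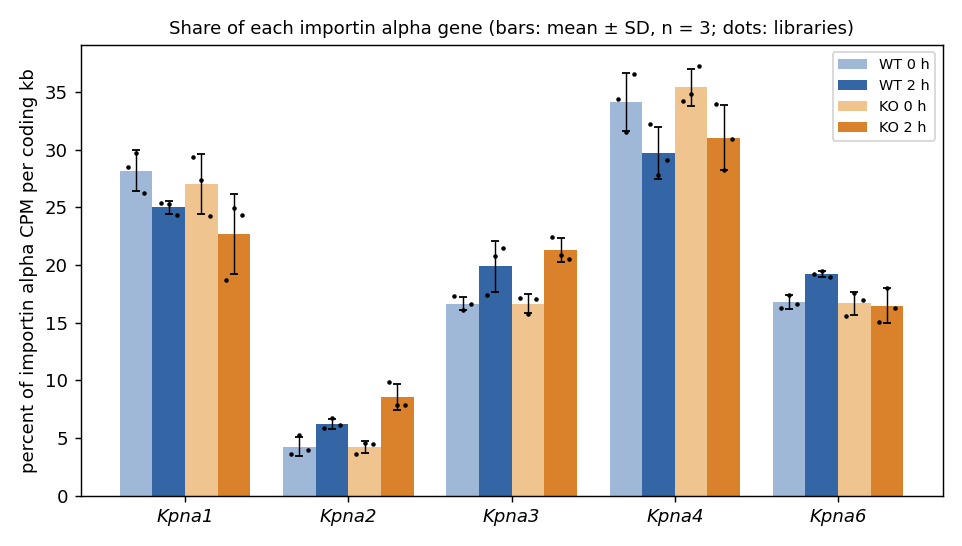
Share of each of the 5 tested importin alpha genes (x axis) in their summed CPM per coding kilobase (y axis, percent), as mean ± SD of 3 libraries with the libraries as dots, for the 4 groups. Kpna2 is the smallest share in every group and grows from 4.26% to 6.22% in WT and from 4.21% to 8.54% in KO, while Kpna4 and Kpna1 stay the largest.

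Of the 11 importin beta receptors, which bind cargo or importin alpha directly, 4 rose in each genotype (Ipo4, Ipo5, Ipo7 and Ipo11) and Ipo13 fell in KO. Of all tested genes 10.7% were called higher in WT, and 14.1% higher and 13.0% lower in KO. The median log2 change of the receptors was 0.32 in WT and 0.23 in KO. Together they took 28.2% to 29.1% of the members' CPM in WT at 0 h and 30.7% to 34.6% at 2 h. Ipo4 (chr14:55625400-55635868), a carrier of histones and ribosomal proteins, stood in WT at 69.2, 81.9 and 55.3 CPM at 0 h and at 119, 228 and 191 CPM at 2 h. In KO, Ipo4 was at 65.1, 58.4 and 57.5 CPM at 0 h and at 88.3, 229 and 164 CPM at 2 h. No 2 h library reached down to a 0 h library, but the size of the step varied, from 0.44 on the log2 scale in KO batch 1 to 1.96 in KO batch 2. The fitted change was the largest of all members, 1.38 ± 0.31 in WT and 1.42 ± 0.31 in KO (adjusted p = 0.00931 and 0.00646 by edgeR). Ipo4 shares 2583 exon bases (55.3% of its exon length) on the same strand with Gm49378, which has no row in the count table. Ipo5 (chr14:120896840-120948046), which imports ribosomal proteins and histones, stood in WT at 171, 179.7 and 137 CPM at 0 h and at 235, 434 and 363 CPM at 2 h. In KO, Ipo5 was at 171.96, 167 and 138.99 CPM at 0 h and at 249.8, 445 and 337 CPM at 2 h. Both times were separate in both genotypes, and the log2 change was 1.08 ± 0.25 and 1.11 ± 0.25 (adjusted p = 0.00967 and 0.00659 by edgeR). Ipo7 (chr7:110018315-110056609), a carrier of ribosomal proteins that also pairs with importin beta, stood in WT at 111, 121 and 109.5 CPM at 0 h and at 163, 222 and 188 CPM at 2 h. In KO, Ipo7 was at 123, 116 and 99.3 CPM at 0 h and at 132, 242 and 187 CPM at 2 h. KO 2 h replicate 1 was only just above the highest KO 0 h library, and the log2 change was 0.74 ± 0.19 and 0.74 ± 0.19 (adjusted p = 0.0193 and 0.0159 by edgeR).

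Ipo11 rose by 0.46 ± 0.15 in WT and 0.54 ± 0.15 in KO on the log2 scale (adjusted p = 0.0482 and 0.0193 by edgeR), and the WT call was lost under 14 of the 22 other settings, the animal as a block among them. Kpnb1 (chr11:97159710-97187892) encodes importin beta itself, the carrier of importin alpha and the highest importin per coding length. It stood in WT at 264, 279 and 249.97 CPM at 0 h and at 317, 467 and 404 CPM at 2 h. In KO, Kpnb1 was at 259.5, 291 and 249 CPM at 0 h and at 289, 495 and 365 CPM at 2 h. The WT times did not overlap, the KO times did by replicate 1, and the log2 change of 0.59 ± 0.20 and 0.53 ± 0.20 just missed the threshold in both (adjusted p = 0.0555 and 0.0658 by edgeR). With the batch number as a replicate block Kpnb1 was called higher in both genotypes, and with the animal as a block in WT but not in KO. Ipo13, a receptor that imports the SUMO-conjugating enzyme UBC9 and also exports cargo, was at 63.4, 56 and 57.8 CPM in WT at 0 h and 40.9, 52.3 and 42.9 at 2 h, and at 59.4, 54.4 and 59.2 and 31.5, 49.1 and 42 in KO. Every 2 h value lay below every 0 h value of its genotype, and the log2 change was -0.38 ± 0.15 in WT (adjusted p = 0.0954 by edgeR) and -0.48 ± 0.15 in KO (adjusted p = 0.0336). The KO fall was called under 14 of the 22 other settings and not without KO 2 h replicate 1, with the animal as a block, with only the groups compared, with no filter, or without any 1 KO 0 h library or KO 2 h replicate 3. The transportins Tnpo1, carrier of hnRNP proteins, and Tnpo3, carrier of splicing factors, had log2 changes of 0.02 and 0.23 in WT and -0.11 and 0.21 in KO. Neither they nor Tnpo2, Ipo8 and Ipo9 were called.

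The 6 exportins with an Xpo symbol split. Cse1l, an exportin under another name, is listed with the Ran cycle genes below. Xpot (chr10:121587380-121626506), the exportin of transfer RNA, stood in WT at 90.9, 85.4 and 82 CPM at 0 h and at 117, 190.5 and 185 CPM at 2 h. In KO, Xpot was at 87.3, 82.9 and 82.4 CPM at 0 h and at 109.7, 212 and 165 CPM at 2 h. The 2 h values were higher throughout, least so in batch 1, and the log2 change was 0.93 ± 0.22 in WT and 0.95 ± 0.22 in KO (adjusted p = 0.0126 and 0.00900 by edgeR). Xpo1 (chr11:23255909-23297597), the general exportin of proteins with a leucine-rich export signal, went the other way and stood in WT at 372, 422 and 459 CPM at 0 h and at 253, 269 and 278 CPM at 2 h. In KO, Xpo1 was at 379, 484 and 443.99 CPM at 0 h and at 146, 249.8 and 307 CPM at 2 h. No 2 h value reached the lowest 0 h value in either genotype, and all 6 animals had a lower value at 2 h. The log2 change was -0.65 ± 0.22 in WT, not called (adjusted p = 0.0606 by edgeR), and -0.89 ± 0.22 in KO (adjusted p = 0.0118). Without KO 2 h replicate 1, the lowest library, the KO fall was still called. In WT it was called with the batch number as a replicate block, with the animal as a block and by DESeq2, and in 9 of 22 other settings in all. Xpo5, the exportin of microRNA precursors, had log2 changes of 0.42 and 0.31, Xpo4, a carrier of the translation factor eIF5A, 0.23 and 0.25, Xpo6, the actin exportin, 0.08 and -0.18, and Xpo7 -0.11 and -0.20, and none of these 4 was called. The exportins took 19.8% to 21.8% of the members' CPM in WT at 0 h and 15.5% to 16.7% at 2 h. In KO the share was 19.3% to 22.0% and 13.9% to 17.0%, so it did not overlap between times. The summed level of the exportins did overlap. It was 908, 919 and 935 CPM in WT at 0 h and 763, 957 and 929 CPM at 2 h. In KO the sum was 884, 1014 and 899 CPM at 0 h and 535, 947 and 888 CPM at 2 h.

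**Figure D4:**
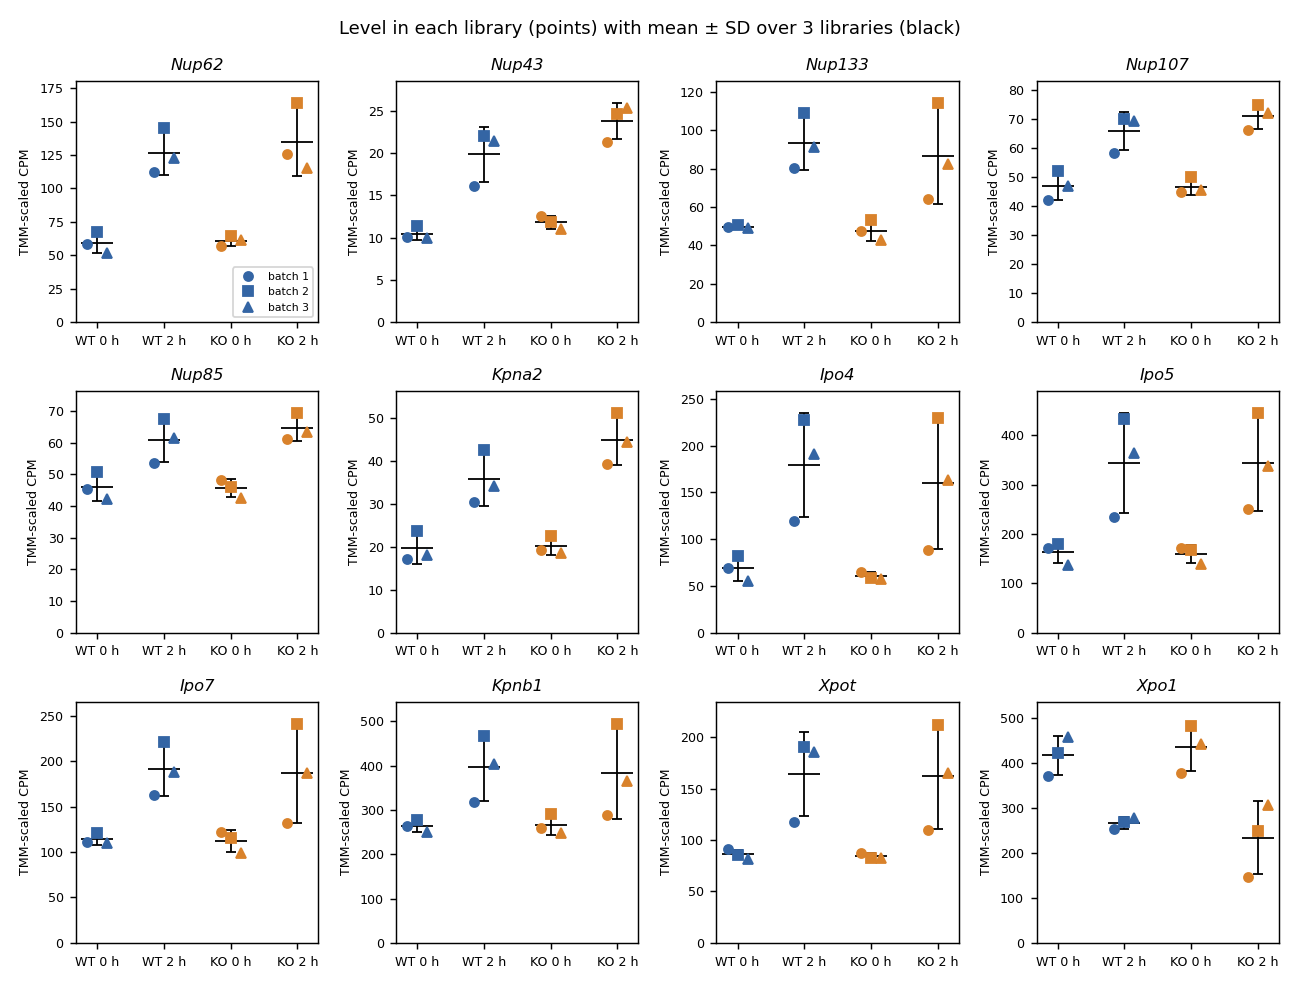
TMM-scaled CPM (y axis, from 0) of 12 members in each of the 12 libraries (x axis: the 4 groups; symbols mark the batch), with the mean ± SD of 3 libraries in black. The points at 2 h lie above those at 0 h for the risers, least clearly in batch 1, and below them for Xpo1, from 372 to 459 down to 253 to 278 in WT.

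Per kilobase of coding sequence, so that genes can be compared, Xpo1 was the highest member in WT at 0 h at 130.02 ± 13.7 CPM per kilobase (SD, n = 3). Kpnb1 (100.5 ± 5.45) and Kpna4 (99.6 ± 8.0) followed and did not differ from each other beyond their spread, then Kpna1 (82.2 ± 6.52) and Nup153 (78.3 ± 9.75), again within their spread. The lowest tested members were Nup43 (9.17 ± 0.674), Nup37 (6.23 ± 1.52), Nup35 (5.24 ± 0.472) and Nup210l (0.771 ± 0.290). At 2 h in WT the order was led by Kpnb1 (151 ± 28.6), Kpna4 (106 ± 4.70) and Ipo5 (105 ± 30.6), up from rank 10, and Xpo1 was at rank 6 (83.1 ± 3.96). The members of the outer and inner rings, the scaffold of the pore, lay at 5.24 to 23.4 CPM per coding kilobase at 0 h in WT, below every exportin except Xpo4 and Xpo5 and below the importins other than Ipo4, Ipo13, Ipo11 and Kpna2. This order holds for the Nup genes alone, since the outer ring subunits Sec13 and Seh1l were at 54.7 and 75.7 CPM per coding kilobase. Receptors under other names, such as Cse1l, were not ranked.

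Between genotypes, no member passed the test. KO against WT gave 0 called members at 0 h, 0 at 2 h and 0 in the difference of responses by edgeR, and 0% of all tested genes was called in each of these comparisons. Jmjd1c itself was among the genes that edgeR did not call. No member reached an unadjusted p under 0.05, while 91, 640 and 40 of all tested genes did. DESeq2 called no member either, and of all tested genes it called 1 lower in KO at 0 h and 2 at 2 h. The log2 differences ran from -0.20 (Nup210) to 0.21 (Nup54) at 0 h and from -0.29 (Nup98) to 0.36 (Nup210l) at 2 h, with a median SE of 0.18, and the absence of calls does not show that the genotypes were alike. The KO libraries lay above the WT libraries without overlap for 1 member at 0 h and 1 at 2 h, Nup35 and Nup37, named here after their values were seen, and below for 0, against 2.95%, 4.62%, 2.90% and 3.60% of all tested genes for above at 0 h and 2 h and below at 0 h and 2 h.

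The members with the smallest p at 0 h were Nup210, lower in KO, at -0.20 ± 0.13 on the log2 scale, and Nup54, higher, at 0.21 ± 0.14, each with an adjusted p of 0.9999 by edgeR. For both genes the KO values listed above for 0 h touched the WT range. At 2 h they were Kpna2, at 0.34 ± 0.17, and Nup43, at 0.27 ± 0.15 (adjusted p = 0.887 and 0.887 by edgeR). Kpna2 also had the smallest p in the difference of responses (0.31 ± 0.24, adjusted p = 0.9999 by edgeR), followed by Kpna6 (-0.32 ± 0.27, adjusted p = 0.9999). Kpna6, another adaptor of importin beta, stood in WT at 79.6, 80.4 and 76.2 CPM at 0 h and at 101, 125 and 107 CPM at 2 h. In KO, Kpna6 was at 83.9, 87.7 and 71.6 CPM at 0 h and at 60.6, 119 and 93.6 CPM at 2 h. The WT times were apart and the KO times overlapped because KO 2 h replicate 1 was the lowest library, while KO replicates 2 and 3 at 2 h exceeded all KO libraries at 0 h. The median KO against WT value of the members at 2 h was -0.10, beside 0.01 for all tested genes, and it turned on single libraries. Leaving out KO 2 h replicate 1 gave 0.08, while leaving out KO 2 h replicate 2 gave -0.24, with 7 members at an unadjusted p under 0.05 and 0 called by edgeR. Of the WT libraries at 2 h, the median was -0.19 when replicate 1 was left out and 0.01 when replicate 2 was.

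**Figure D5:**
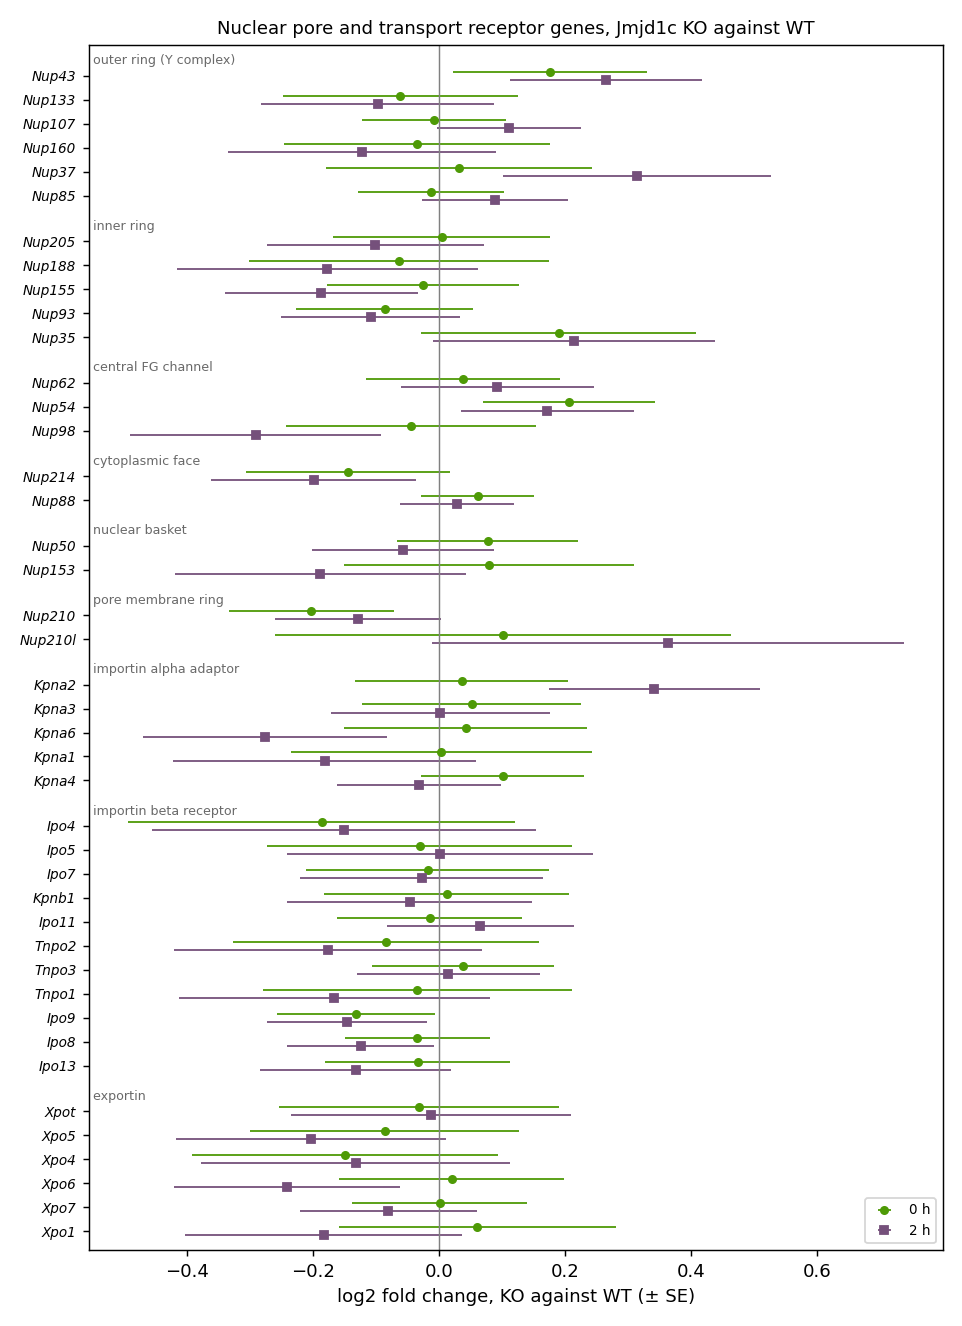
Fitted log2 difference between Jmjd1c KO and WT (x axis, ± SE) for the 42 tested members (y axis, by place in the machinery) at 0 h (circles) and 2 h (squares). No point passed the adjusted p threshold, and the values lie between -0.29 and 0.36.

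Genes that work with the pore but carry other names were listed by function and are described by their counts. Of 14 tested genes for pore proteins under other names and proteins near the pore, 0 rose and 1 fell in WT. In KO 1 rose and 1 fell, and the median log2 change was 0.32 in WT and 0.25 in KO. The shares of all tested genes given above, 10.7% higher and 9.06% lower in WT and 14.1% and 13.0% in KO, lie near or above these counts. The fall in both was Tor1aip1, a protein of the inner nuclear membrane rather than of the pore (-0.41 ± 0.11 in WT and -0.49 ± 0.11 in KO, adjusted p = 0.0194 and 0.00676 by edgeR). The rise in KO was Nupl2, of the cytoplasmic face, named after its value was seen (0.66 ± 0.16, adjusted p = 0.0110 by edgeR). Rae1, Ahctf1 and Ndc1 had values of 0.36, 0.64 and 0.51 in WT and were not called.

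The Ran cycle sets the direction of transport. Of 12 tested genes of this cycle and receptors under other names, 5 rose and 0 fell in each genotype. Of all tested genes 10.7% were called higher in WT and 14.1% in KO. The median log2 change of the list was 0.44 in WT and 0.36 in KO. Ran itself went from 106 ± 16.7 CPM to 199.6 ± 30.3 in WT and from 109 ± 4.64 to 261 ± 27.5 in KO (SD, n = 3), a log2 change of 0.92 ± 0.15 and 1.26 ± 0.15 (adjusted p = 0.00170 and 0.000221 by edgeR). Rcc1, the chromatin-bound exchange factor that loads Ran with GTP, rose by 1.26 ± 0.21 and 1.504 ± 0.21 on the same scale. The Ran-GTP binding protein Ranbp1 rose by 0.96 ± 0.18 and 1.31 ± 0.18, and Nutf2, which returns Ran-GDP to the nucleus, by 1.17 ± 0.21 and 1.12 ± 0.21. The fifth was Rangap1, the GTPase activator, at 0.73 and 0.65, named after its value was seen.

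Of 12 tested adaptors and factors for the export of ribosomal subunits and small RNAs, 8 rose and 0 fell in each genotype, beside 10.7% higher and 9.06% lower of all tested genes in WT and 14.1% and 13.0% in KO. The median log2 change of the list was 0.80 in WT and 0.93 in KO. Nmd3, the adaptor that links the large ribosomal subunit to Xpo1, went from 44.6 ± 1.23 to 71.6 ± 7.61 CPM in WT and from 46.9 ± 0.596 to 87 ± 2.34 CPM in KO (log2 change 0.68 ± 0.10 and 0.89 ± 0.10, adjusted p = 0.000823 and 0.000138 by edgeR). Ltv1, of the small subunit, rose by 1.21 ± 0.14 and 1.21 ± 0.14, Heatr3, a factor for ribosomal protein import, by 1.41 ± 0.23 and 1.39 ± 0.23, and Nob1, the nuclease of small subunit maturation, by 1.06 ± 0.18 and 1.38 ± 0.19. Nmd3 moved up while Xpo1, the receptor it links to, had the negative values given above. Of 23 tested mRNA export genes, 6 rose and 1 fell in WT and 7 rose and 1 fell in KO, beside the same shares of all tested genes, with a median of 0.11 and 0.14. The THO subunit Thoc1 had log2 changes of 0.58 and 0.66, the helicase Ddx39 0.56 and 0.74, and the adaptor Alyref 0.60 and 1.06, all called. The adaptor Fyttd1 fell, with -0.72 ± 0.14 in WT and -0.67 ± 0.14 in KO (adjusted p = 0.00479 and 0.00551 by edgeR).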

How the data were processed

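RNA was measured in 12 libraries of sorted splenic follicular B cells. The deposited values are raw counts per gene symbol, whole numbers that the authors made from reads aligned with STAR to mm10, per the submitters' processing notes. Which STAR version, counting program, strand option and annotation were used, and how shared reads were treated, was not given in the sources used here. Poly(A) selection was used, per the labels' protocols.

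From these counts, edgeR 4.0.16 (R 4.3.3) was run on all genes: filterByExpr (minimum count 10), TMM scaling, and a quasi-likelihood fit with 1 mean per group over all 12 libraries. It gave 5 two-sided comparisons, with p-values adjusted by Benjamini-Hochberg over the 12242 genes tested and called under 0.05. The SE of a log2 change was derived from the F statistic. Within-animal differences used log2(CPM + 0.5). Coding lengths came from GENCODE M21 (longest principal transcript), positions and promoter windows from RefSeq (GRCm38.p6). The fit was tested on simulated counts. Precision follows from the depth, 5666013 to 14153396 counts per library, and from 3 libraries per group.

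All 12 values were given for the 10 members with the smallest p in the weaker of the 2 genotypes at 2 h against 0 h, the highest member per coding kilobase of each role, and the 2 with the smallest p in each genotype comparison. Of each pathway list the 4 genes with the smallest p were named. Members, lists and rules were chosen with earlier results of these data known. No pair of libraries from the same group agreed within sampling noise, and pairs across groups were not compared.

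The labels name the replicate number a batch, and both times of an animal carry it, so the numbers pair the samples. Deviations from group means correlated at -0.40 to 0.86 for equal numbers and -0.75 to 0.60 for unequal ones. Alternatives were RLE size factors, no filter, a filter of 1 CPM in 6 libraries, DESeq2 1.42.0, a block for the batch or for the animal, only the groups compared, each library left out, the 2 h libraries of batch 1 left out, and the Rn45s row left out. The batch block without the 2 h libraries of batch 1 was added after the data were seen.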

Additional observations from a re-analysis of the deposited data

How the results depend on the processing

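With the batch number as a replicate block, the members called were 15 higher and 1 lower in WT and 14 higher and 2 lower in KO, against 14 and 0 and 14 and 2 without it. All tested genes called moved too, to 12.8% higher and 12.1% lower in WT and 15.9% and 16.2% in KO, from 10.7% and 9.06% and 14.1% and 13.0%. The animal as a replicate block gave 12 and 1 in WT and 12 and 1 in KO. The count of members lower in WT was 1 with RLE size factors, 2 with DESeq2, 2 with only the groups compared and 2 without the 2 h libraries of batch 1, and the count lower in KO was 1 with no filter and 0 with only the groups compared. With the replicate block and without the 2 h libraries of batch 1, a setting added after the data were seen, the counts were 25 higher and 3 lower in WT and 27 higher and 3 lower in KO, when 19.9% and 21.9% of all tested genes were called in WT and 21.2% and 23.0% in KO. Kpna1 in KO, at -0.06 on the log2 scale and not called, was at 0.27 and called there. Leaving out 1 library at a time gave 5 to 20 higher and 0 to 2 lower in WT, and 10 to 21 higher and 1 to 2 lower in KO. In these fits 5.78% to 15.1% of all tested genes were called higher in WT and 9.64% to 17.1% in KO. When a 0 h or 2 h library of the group itself was left out, the remaining 2 libraries were assumed to vary like the other groups. In KO against WT, at 0 h, at 2 h and in the response, 0 members were called under any setting that was run. Of all tested genes, DESeq2 called 1 lower in KO at 0 h and 2 at 2 h. The replicate block without the 2 h libraries of batch 1 called 5 and 2 lower. The animal block allows no comparison of genotypes at 1 time and was not run there, and the response was not run with only the groups compared, which are all groups. The cause of these shifts was not tested. Depth limits the lowest members most: Nup210l had 10 to 99 counts per library and Nup35 20 to 98.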
